A study of Mus musculus with 2 samples.

Results

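Potassium channel genes were taken as every gene of the deposited feature list whose symbol begins with Kcn, together with Abcc8 and Abcc9, which encode the sulfonylurea receptors that partner some inward rectifiers. This rule found 101 genes of 32287 features. It used only names and no measured value. In all, 50 of the genes had at least 20 UMIs (unique molecular identifiers, the barcodes that count single RNA molecules) in the cells kept, 30 of them with at least 100 UMIs, and form the set described here. A further 42 genes had 1 to 19 UMIs and 9 had none.

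The data are single-cell RNA sequencing of the thoracic aortas of 2 WT mice on the C57BL/6J background (1 group, n = 2 aortas). The genotype is GFPiSMC, in which the Myh11 promoter drives a tamoxifen-inducible Cre recombinase in smooth muscle and the mT/mG reporter turns from tdTomato to eGFP after recombination. From 3 weeks of age tamoxifen was injected intraperitoneally, 1 mg on each of 5 days, with collection of the aortas at 12 weeks. The study asks how the aortic wall depends on TGF-β signals received by its smooth muscle cells (SMCs). These aortas are the WT group, so the comparisons are between the cell types of 1 condition. The labels describe sorted viable single cells, whereas the study's methods describe a GFP+ sort for its SMC libraries. These libraries held all major cell types of the wall.

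Potassium channels let potassium leave the cell, which holds the membrane at a negative voltage and keeps voltage-gated calcium channels shut. In arterial SMCs their opening relaxes the vessel, and their closing depolarizes and contracts it. The large-conductance calcium-activated (BK) channel, voltage-gated (Kv) channels, inward rectifiers, ATP-sensitive (KATP) channels and K2P (tandem-pore) leak channels all take part. Endothelial cells use small- and intermediate-conductance calcium-activated channels to hyperpolarize the wall, and immune cells use potassium channels to sustain calcium entry.

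After filtering, 6539 of 8947 deposited cells of aorta 1 and 4614 of 6263 of aorta 2 were kept (the labels state 6278 and 4300 after the study's own filter), with a median of 5671 and 5397 UMIs per cell. The member genes gave 35451 and 24092 UMIs, or 862 and 872 CPM, that is, UMIs in every 1000000 UMIs of the same cells. Cells of both aortas formed 28 clusters, which marker genes placed in 7 types: SMCs (2220 in aorta 1 and 1613 in aorta 2), fibroblasts (1638 and 1140), myeloid cells (975 and 598), endothelial cells (785 and 729), lymphocytes (620 and 361), a mesothelial type (277 and 159) and an erythroid type (24 and 14). Each name means only that a cluster resembled that type in its markers. No potassium channel gene entered the clustering. The summed SMC marker list stood at 42540 and 40474 CPM in SMCs and between 594 and 2817 in the other types. In these types single SMC markers ran at 0.00947 to 0.153 of their SMC level, leaving out erythroid cells, which is the range against which low levels of SMC genes are read below. Fibroblasts include 3 clusters (1396 cells) in which SMC markers were the second-ranked list, and values without them are given for some genes. The 2 libraries shared 10 barcodes among the cells kept.

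Levels are in CPM of that cell type, in aorta 1 and then aorta 2. The assay reads the 3′ end, so levels do not scale with gene length. In the F test across the 7 types, edgeR's quasi-likelihood test with Benjamini-Hochberg adjustment passed 36 of 36 member genes that had enough UMIs to be tested. Of all genes tested 92.5% passed. Members such as Kcnk13, Kcnd2 and Kcnj10 entered the test mainly through the type where they were high and had to differ, so nothing is read from this count. P-values measure the spread between the 2 animals within a type, pooled over all types in a fit. Sums from the same animal were treated as independent. Of these 50 genes, 15 had their highest mean level in SMCs, 9 in fibroblasts, 8 in endothelial cells, 8 in mesothelial cells, 6 in lymphocytes and 4 in myeloid cells, erythroid cells being left out of this order for their small number.

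**Figure D1:**
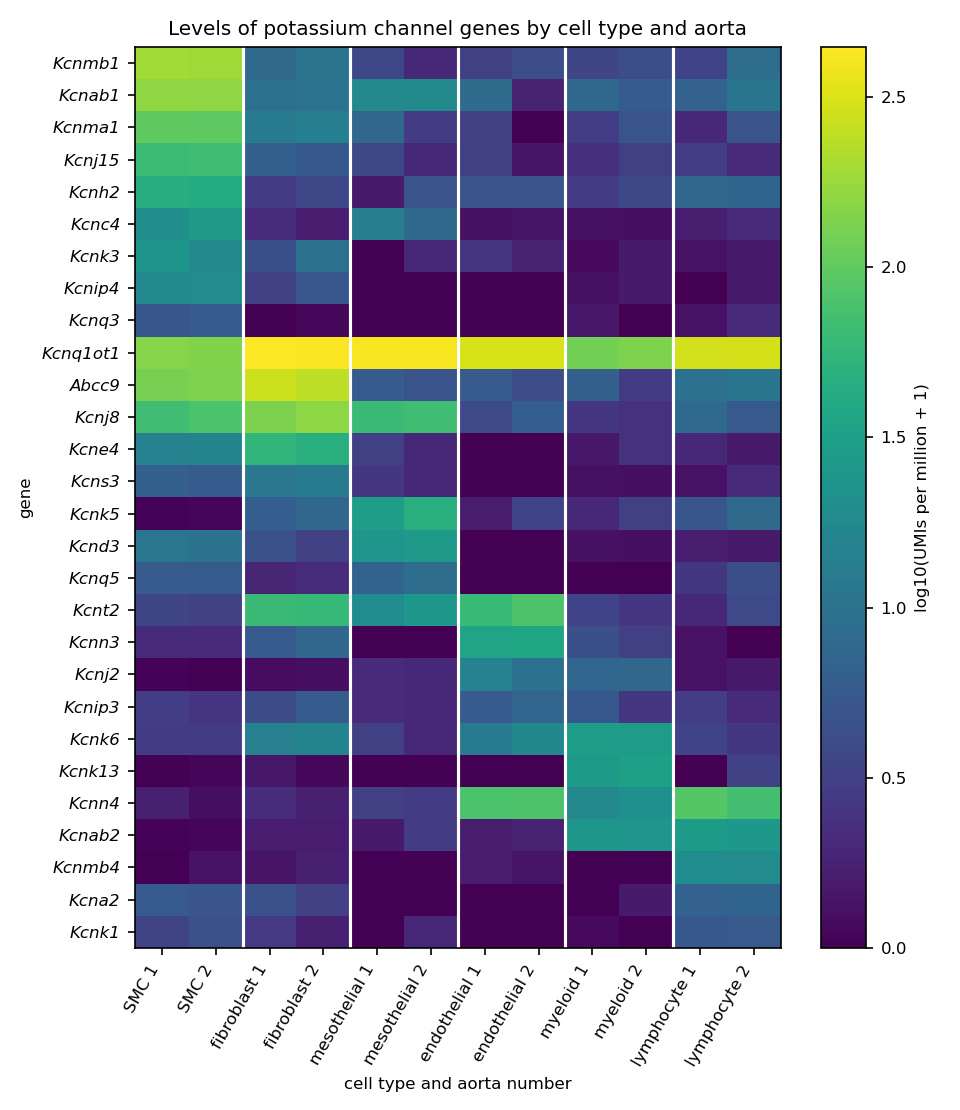
Levels of 28 potassium channel genes with at least 100 UMIs (vertical axis) in 6 cell types and 2 aortas (horizontal axis), colored by log10(CPM + 1). Columns of the same type in aorta 1 and aorta 2 look alike, Kcnmb1, Kcnab1, Kcnma1 and Kcnj15 are bright in the SMC columns, and Kcnq1ot1 is bright in every type.

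Kcnmb1 had the highest level of the members in SMCs, and its partner Kcnma1 stood below Kcnab1, Kcnq1ot1 and Abcc9. Kcnma1 encodes the pore-forming subunit and Kcnmb1 the smooth muscle β1 subunit, which raises the channel's calcium sensitivity. Kcnmb1 stood at 189 and 184 CPM in SMCs, at 7.23 and 9.50 in fibroblasts, and at 2.20 and 3.18 in endothelial cells. Kcnma1 stood at 99.99 and 95.8 in SMCs, at 11.2 and 12.9 in fibroblasts, and at 2.20 and 0 in endothelial cells. Neither gene's SMC values overlapped those of another type. Kcnmb1 was higher in SMCs than in fibroblasts by a log2 of 4.60 ± 0.16 (SE; edgeR adjusted p = 5.15e-16) and Kcnma1 by 3.12 ± 0.18 (edgeR adjusted p = 2.01e-12). Both fibroblast levels were within or below the range that SMC markers showed there. SMCs held 96.6% and 95.5% of all Kcnmb1 UMIs, and 91.6% and 90.8% of Kcnma1 UMIs.

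Single cells showed the same contrast. With each cell thinned to 1000 UMIs, Kcnmb1 was seen in 15.9% of SMCs of aorta 1 (exact 95% interval 14.4 to 17.5) and 16.7% of aorta 2 (14.9 to 18.6). In lymphocytes, which should lack it, the share was 0.323% and 1.11%. Without thinning the shares were 64.2% and 63.4% of SMCs, at median depths of 7734 and 7486 UMIs, and 0.968% and 2.22% of lymphocytes, at 4083 and 3895 UMIs. Kcnj8, at the same depth, was seen in 5.54% and 6.32% of SMCs, 10.9% and 12.7% of fibroblasts and 0.484% and 0.554% of lymphocytes. These intervals cover counting error only.

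In mm10, Kcnma1 lies at chr14:23289431-24014491 on the minus strand and Kcnmb1 at chr11:33963013-33973641 on the plus strand, where Kcnip1 overlaps it on the other strand. The promoters of this pair are shown because the 2 subunits were highest in the same cells. Each is the 250 bases upstream of the RefSeq start, written 5′ to 3′ on the gene's strand in GRCm38.p6, with GC boxes (GGGCGG on either strand) in capitals. The Kcnma1 window is chr14:24004206-24004455 on the minus strand and the Kcnmb1 window is chr11:33962763-33963012 on the plus strand. The Kcnma1 window lies inside the annotated gene, since the RefSeq start used is not the outermost one annotated.
Kcnma1: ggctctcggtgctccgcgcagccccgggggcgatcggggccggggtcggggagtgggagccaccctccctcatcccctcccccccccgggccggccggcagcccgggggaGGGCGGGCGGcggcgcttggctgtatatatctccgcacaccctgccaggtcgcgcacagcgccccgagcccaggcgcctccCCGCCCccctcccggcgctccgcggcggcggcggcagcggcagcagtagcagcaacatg
Kcnmb1: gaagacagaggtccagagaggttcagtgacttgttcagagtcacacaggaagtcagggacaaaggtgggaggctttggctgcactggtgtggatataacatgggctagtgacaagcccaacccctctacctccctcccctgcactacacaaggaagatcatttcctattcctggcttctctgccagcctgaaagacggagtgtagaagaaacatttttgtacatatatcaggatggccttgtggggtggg
The Kcnma1 window was 79.2% G or C and held 3 GC boxes, 2 of them overlapping, and the Kcnmb1 window was 50.8% G or C and held none. The median over all windows was 52.4%.

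Of these 50 genes, 38 matched a promoter in the RefSeq table, with 55 windows among the 32851 searched on both strands. GGGCGG occurred in 19 of the 55 windows (34.5%) against 32.7% of all windows, and TATAAA in 1 (1.82%), that of Kcnj13, against 12.4%. The CArG box, the element bound by serum response factor, occurred in 0 of 55 windows against 1.47% of all. A match is a description of the letters in this window, and a missing match says nothing about a factor.

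Among Kv genes, SMCs expressed Kcnab1 most. Kcnab1, the β1 subunit that modulates Kv1 pores, stood at 160.1 and 159 CPM in SMCs, 8.601 and 9.21 in fibroblasts and 16.8 and 17.7 in mesothelial cells. Its difference from fibroblasts was a log2 of 4.26 ± 0.18 (SE; edgeR adjusted p = 1.74e-14). The Kv1 pore genes were low beside it. Kcna2 stood at 4.82 and 3.96 in SMCs, 3.52 and 2.16 in fibroblasts and 5.75 and 6.19 in lymphocytes, Kcna6 at 1.505 and 3.19 in SMCs, and Kcna5 at 1.69 and 2.07 in SMCs and 1.89 and 1.59 in endothelial cells. Kcna1 was at or under 2.71 in each aorta of every type. The Kcna2 difference between SMCs and fibroblasts did not pass the test (log2 0.69 ± 0.34 SE, edgeR adjusted p = 0.101), but did without the 3 fibroblast clusters that carry SMC markers (log2 3.63, edgeR adjusted p = 6.40e-05).

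Other voltage-gated pores were divided by cell type. Kcnh2, the ERG channel, stood at 43.3 and 41.1 in SMCs and 1.96 and 2.73 in fibroblasts (log2 4.29 ± 0.21 SE, edgeR adjusted p = 2.94e-13). Kcnc4, a Kv3 pore, stood at 19.4 and 26.1 in SMCs and 1.17 and 0.576 in fibroblasts (log2 4.66 ± 0.29, edgeR adjusted p = 1.56e-11), with mesothelial cells next at 12.5 and 6.87. Kcns3, a silent subunit that assembles with other Kv pores, was at 5.48 and 4.82 in SMCs and 10.2 and 11.4 in fibroblasts, a log2 of -0.95 that became -0.38 (edgeR adjusted p = 0.275) without the 3 fibroblast clusters that carry SMC markers. Its adjusted p also rose above 0.05 with DESeq2 (0.0890), with 5000 to 25000 UMIs per cell (0.246) and at clustering resolution 2 (0.115).

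KCNQ (Kv7) pores carry a sustained current near the resting voltage. Kcnq5 stood at 4.63 and 4.56 in SMCs and 5.96 and 7.85 in mesothelial cells, a difference that did not pass the test (edgeR adjusted p = 0.666). Kcnq3 stood at 4.15 and 4.74 in SMCs and at 0 and 0.144 in fibroblasts. Kcnq1 stood at 6.29 and 4.77 in endothelial cells and 3.91 and 3.55 in myeloid cells, at 0.120 and 0.0861 in SMCs, and had no UMI in the other types. Kcne4, an accessory subunit of KCNQ and other Kv pores, was highest in fibroblasts at 54.3 and 45.0, against 14.0 and 14.5 in SMCs, and had no UMI in endothelial cells.

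Of the A-type (Kv4) pore genes, Kcnd2 and Kcnd3 were highest in mesothelial cells, the lining of the outer surface. Kcnd2 stood at 25.5 and 36.3 there and at or below 0.546 in every other type. Kcnd3 stood at 23.3 and 25.5 in mesothelial cells and at 10.1 and 8.70 in SMCs, a log2 difference of 1.07 ± 0.25 (SE; edgeR adjusted p = 0.00156). The summed cardiomyocyte marker list was also highest in mesothelial cells, at 1026 and 809 CPM against 120 and 56.2 in SMCs, and its part in these levels was not tested. Kcnd1 stood at 2.54 and 3.88 in fibroblasts and 2.17 and 2.94 in mesothelial cells. Kcnip4, which encodes a Kv channel-interacting protein of Kv4 pores, was instead highest in SMCs, at 16.9 and 17.9 against 2.35 and 4.17 in fibroblasts, and had no UMI in mesothelial cells. Kcnip3 was highest in endothelial cells at 4.72 and 6.36, but the difference from fibroblasts did not pass the test (edgeR adjusted p = 0.501).

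The vascular KATP channel is built from the Kcnj8 pore (Kir6.1) and the Abcc9 receptor (SUR2), whose genes lie 16247 bases apart on the minus strand of chromosome 6, Kcnj8 at chr6:142564837-142571614 and Abcc9 at chr6:142587862-142702315 in mm10. Both were shared between SMCs and fibroblasts. Kcnj8 stood at 67.4 and 77.4 in SMCs, 134 and 157 in fibroblasts and 62.8 and 67.7 in mesothelial cells. Fibroblast markers were the second-ranked list of both mesothelial clusters, at 6720 and 8344 CPM in mesothelial cells against 31102 and 30863 in fibroblasts, and their part in the mesothelial levels of Kcnj8, Kcnt2 and Kcnq1ot1 was not tested. Abcc9 stood at 127 and 137 in SMCs, 278 and 239 in fibroblasts, and only at 4.88 and 3.92 in mesothelial cells. Fibroblast levels were above SMC levels in both aortas, by a log2 of 0.91 ± 0.11 for Kcnj8 and 0.88 ± 0.12 for Abcc9 (edgeR adjusted p = 3.38e-07 and 1.28e-06), each short of the log2 limit of 1. Both passed that limit under relative log expression (RLE) scaling. Without the 3 fibroblast clusters that carry SMC markers, which also hold high KATP levels, SMC minus fibroblast was a log2 of -0.31 for Kcnj8 and -0.39 for Abcc9 (edgeR adjusted p = 0.0282 and 0.0100). Kcnj8 UMIs per Abcc9 UMI were 0.531 and 0.566 in SMCs and 0.481 and 0.655 in fibroblasts. The alternative subunits were scarce: Kcnj11 (Kir6.2) stood at 1.81 and 1.46 in SMCs and Abcc8 had 6 UMIs in all.

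The KATP pair was uneven among fibroblasts. A cluster of 371 cells led by Pla1a and Dact2 held Kcnj8 at 10.9 and 16.2 and Abcc9 at 53.0 and 51.2. A cluster of 1011 cells led by Hmcn2 and Penk held Kcnj8 at 127 and 147 and Abcc9 at 266 and 234. The highest values of any cluster described here were in 156 cells led by Mab21l2 and Chrm2, with Kcnj8 at 307 and 471 and Abcc9 at 615 and 518. SMC genes moved with these values: this cluster is 1 of the 3 with SMC markers as the second list, and also held Kcnma1 at 74.6 and 101 and Kcnk3 at 34.4 and 151. The part of SMC RNA in its KATP levels was not tested. The promoters of both genes are shown because the genes are neighbors on the minus strand and encode the 2 parts of 1 channel. The Abcc9 window is chr6:142702275-142702524 and the Kcnj8 window is chr6:142571615-142571864 in GRCm38.p6, again with GC boxes in capitals. The Abcc9 window partly overlaps the annotated gene for the same reason.
Abcc9: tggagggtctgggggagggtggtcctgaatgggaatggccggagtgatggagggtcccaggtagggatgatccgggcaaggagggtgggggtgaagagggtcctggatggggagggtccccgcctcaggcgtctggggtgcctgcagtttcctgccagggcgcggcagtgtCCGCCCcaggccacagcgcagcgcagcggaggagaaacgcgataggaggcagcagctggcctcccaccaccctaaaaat
Kcnj8: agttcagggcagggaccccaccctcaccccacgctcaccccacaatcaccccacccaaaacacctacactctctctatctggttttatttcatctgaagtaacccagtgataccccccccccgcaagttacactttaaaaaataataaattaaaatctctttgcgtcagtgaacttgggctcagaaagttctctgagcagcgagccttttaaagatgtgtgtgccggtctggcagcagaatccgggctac
The Abcc9 window was 66.8% G or C with 1 GC box, and the Kcnj8 window was 49.2% with none.

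Inward rectifiers other than KATP divided the wall. Kcnj15 (Kir4.2) stood at 63.9 and 66.7 in SMCs, 5.67 and 4.32 in fibroblasts and 2.20 and 0.397 in endothelial cells, and was higher in SMCs than in fibroblasts by a log2 of 3.77 ± 0.17 (SE; edgeR adjusted p = 1.39e-13). Kcnj2 (Kir2.1), a classical inward rectifier of vascular cells, was highest in endothelial cells at 13.8 and 8.74, followed by myeloid cells at 6.35 and 6.55, a difference that did not pass the test (edgeR adjusted p = 0.164). In SMCs Kcnj2 stood at 0.0602 and 0. Kcnj12 (Kir2.2) stood at 1.26 and 1.38 in SMCs, Kcnj10 (Kir4.1) at 5.21 and 4.37 in myeloid cells with no UMI in SMCs, and Kcnj13 stayed at or below 2.37 in all types.

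The K2P leak channels set the resting voltage and were shared out over all types. Kcnk3 (TASK-1) was highest in SMCs, at 22.7 and 16.4 against 3.42 and 8.49 in fibroblasts (log2 1.90 ± 0.28 SE, edgeR adjusted p = 5.67e-06). Fibroblasts were uneven, since the cluster led by Mab21l2 and Chrm2 held far more Kcnk3 than this, as given above. The difference without that cluster is not given here. Kcnk5 (TASK-2) was highest in mesothelial cells at 29.8 and 44.1, against 5.18 and 6.47 in fibroblasts and 0.0602 and 0.0861 in SMCs. Kcnk6 (TWIK-2) was highest in myeloid cells at 29.5 and 28.1, followed by fibroblasts at 13.1 and 14.7 and endothelial cells at 11.3 and 16.3. Kcnk13 (THIK-1), a microglial and macrophage leak channel, stood at 26.7 and 30.8 in myeloid cells and at or below 2.25 elsewhere. Kcnk2 (TREK-1) stood at 1.96 and 4.61 in fibroblasts and had no UMI in SMCs. Kcnk1 (TWIK-1) stood at 2.53 and 3.53 in SMCs and 4.40 and 4.50 in lymphocytes (difference not past the test, edgeR adjusted p = 0.313).

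The other calcium- and sodium-activated channel genes named here stood at or below 2.59 CPM in SMCs. Kcnn4, the intermediate-conductance (KCa3.1) channel, stood at 77.0 and 79.0 in endothelial cells, 87.6 and 71.4 in lymphocytes, 16.8 and 20.2 in myeloid cells and 0.722 and 0.258 in SMCs. The lymphocyte level was above the endothelial one by a log2 of 0.24 ± 0.15 (SE), which did not pass the test (edgeR adjusted p = 0.165). Kcnn3, the small-conductance (KCa2.3) channel of endothelium, stood at 34.0 and 35.8 in endothelial cells and 4.79 and 6.47 in fibroblasts, with 18.1 and 0 in the few erythroid cells. Kcnn1 was at or below 3.45 in every type. Kcnt2, a sodium-activated channel, stood at 61.3 and 79.8 in endothelial cells and 62.6 and 57.9 in fibroblasts (log2 0.09 ± 0.14 SE, edgeR adjusted p = 0.641), 18.4 and 24.5 in mesothelial cells, and 2.59 and 2.33 in SMCs. Kcnmb4, the BK β4 subunit, stood at 18.6 and 18.0 in lymphocytes and at or below 0.720 elsewhere. The pore gene Kcnma1 stood at 1.01 and 3.94 in lymphocytes.

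The noncoding RNA Kcnq1ot1, transcribed antisense to Kcnq1 and known for silencing an imprinted domain, was the most abundant member. It made up 29.2% and 28.2% of all member UMIs. It stood at 443 and 428 in fibroblasts, 413 and 406 in mesothelial cells, 307 and 303 in endothelial cells and 147 and 139 in SMCs. The strand setting of the counting is not given in the sources used here. The part of Kcnq1 reads in the Kcnq1ot1 level was therefore not tested. Kcnq1 itself had no UMI in fibroblasts, mesothelial cells or lymphocytes. Without the noncoding RNAs, the summed level of the members was 920 ± 7.89 CPM in SMCs (SD, n = 2), 654 ± 12.3 in fibroblasts, 301 ± 2.87 in endothelial cells, 273 ± 17.3 in mesothelial cells, 218 ± 0.555 in lymphocytes and 167 ± 0.956 in myeloid cells. The fibroblast value was 472.0 without the 3 clusters that carry SMC markers. SMCs held 60.6% and 62.2% of these UMIs, against 40.4% and 42.0% of the UMIs of all genes.

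In the contrast of SMCs with fibroblasts, 13 of 36 member genes tested were higher in SMCs (adjusted p under 0.05 and log2 over 1), read against 9.88% of all genes tested. They included Kcnq3, Kcnc4, Kcnmb1, Kcnh2, Kcnab1, Kcnj15, Kcnma1, Kcnip4, Kcnq5, Kcnk3, Kcnd3 and Kcnk1. A further 7 were higher in fibroblasts, read against 15.5%: Kcnk5, Kcnt2, Kcnk6, Kcnab2, Kcnn3, Kcne4 and Kcnq1ot1. Kcnt2 was lower in SMCs by a log2 of -4.50 ± 0.18 (SE) and Kcnk6 by -2.76 ± 0.22 (edgeR adjusted p = 1.37e-14 and 7.48e-10). The median log2 difference was 0.34 over the members tested, or -0.04 over 32 of them without the 4 that had at most 3 counts in both types, and -0.06 over all genes. RLE scaling moved the median of all genes by a log2 of -0.24 and gave 13 and 11 in place of 13 and 7, adding Abcc9, Kcnj8, Kcns3 and Kcnip3. DESeq2 gave 11 and 9. The 9.88% and 15.5% are shares of the main fit, and no share under RLE scaling or DESeq2 is given here.

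The other SMC-higher differences from fibroblasts were a log2 of 2.56 ± 0.25 (SE) for Kcnip4, 2.28 ± 0.38 for Kcnq5, 1.77 ± 0.25 for Kcnd3 and 1.26 ± 0.43 for Kcnk1. Kcnq3 had 1 UMI in fibroblasts, and its pooled level was 75.5 times as high in SMCs (exact 95% counting interval 13.3 to 3005). Without the 3 fibroblast clusters that carry SMC markers the difference was a log2 of 6.12 for Kcnmb1 and 5.96 for Kcnma1. The edgeR adjusted p of Kcnk1 was 0.0189, and it rose to 0.650 with DESeq2 and 0.149 without aorta 2 of the SMCs. In the fibroblasts the levels of 7 of the 13 genes (Kcnmb1, Kcnab1, Kcnma1, Kcnj15, Kcnh2, Kcnc4 and Kcnq3) were within or below the range of SMC markers there, 0.0463 to 0.153 of the SMC level. Those of Kcnip4, Kcnk3, Kcnd3, Kcnq5 and Kcnk1 lay above it in at least 1 aorta. The part of SMC RNA in these fibroblast levels was not tested. Of the fibroblast-higher genes, Kcnn3 differed by a log2 of -2.21 ± 0.31, Kcne4 by -1.72 ± 0.14 (-1.09 without those 3 clusters) and Kcnq1ot1 by -1.51 ± 0.11. Kcnk5 and Kcnab2 had 2 UMIs each in SMCs. Their pooled levels were 80.5 (21.7 to 674) and 8.21 (1.75 to 77.1) times as high in fibroblasts. For Kcnab2 the edgeR adjusted p was 0.00554, or 0.0545 without aorta 1 of the SMCs.

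In the contrast of SMCs with endothelial cells, 17 of 36 were higher in SMCs, read against 14.1% of all genes tested. Of these, 9 had UMIs in both types, and the differences ran from a log2 of 3.66 ± 0.25 (SE) for Kcnh2 to 6.51 ± 0.34 for Kcnma1. With doublets kept the difference was 4.64 for Kcnma1 and 4.76 for Kcnmb1. The other 8 had no UMI in endothelial cells. Set against a floor of 3 counts over both aortas, Kcnip4 was at least 32.9-fold higher in SMCs, Kcne4 at least 26.9-fold and Kcnd3 at least 18.0-fold, and Kcns3, Kcnq5, Kcna2, Kcnq3 and Kcnk1 at least 9.89-, 8.75-, 8.48-, 8.35- and 5.59-fold. With doublets kept Kcne4 had endothelial UMIs, and its difference was a log2 of 3.46. With DESeq2 the adjusted p of Kcnq3 was 0.392. A further 10 of 36 were higher in endothelial cells, read against 15.8%. They were Kcnj2, Kcnn4, Kcne3, Kcnq1, Kcnn3, Kcnt2, Kcnk5, Kcnab2, Kcnk6 and Kcnip3. Kcnn4 was lower in SMCs by a log2 of -6.91 ± 0.24 and Kcnn3 by -4.73 ± 0.28 (edgeR adjusted p = 3.88e-16 and 6.05e-12). Kcnt2 differed by -4.59 ± 0.19, Kcnk6 by -2.62 ± 0.26 and Kcnip3 by -1.34 ± 0.43. The other 5 rest on 1 to 3 UMIs in SMCs, so that ratios of pooled levels are given with exact 95% counting intervals. Endothelial over SMC, the ratio was 327 (56.7 to 13100.0) for Kcnj2, 193 (32.7 to 7823) for Kcne3, 52.8 (16.5 to 270) for Kcnq1, 19.8 (3.95 to 192) for Kcnk5 and 9.91 (1.42 to 110) for Kcnab2. The adjusted p rose above 0.05 under another setting for Kcnk5 and Kcnab2 (0.604 and 0.406 with 5000 to 25000 UMIs per cell) and for Kcnip3 and Kcnq1 (0.0713 and 0.167 with DESeq2). The median was a log2 of 0.98 over the members tested, or 2.48 over 33 of them with the 8 genes above at their bound and without 3 that had at most 3 counts in both types, and 0.00 over all genes.

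**Figure D2:**
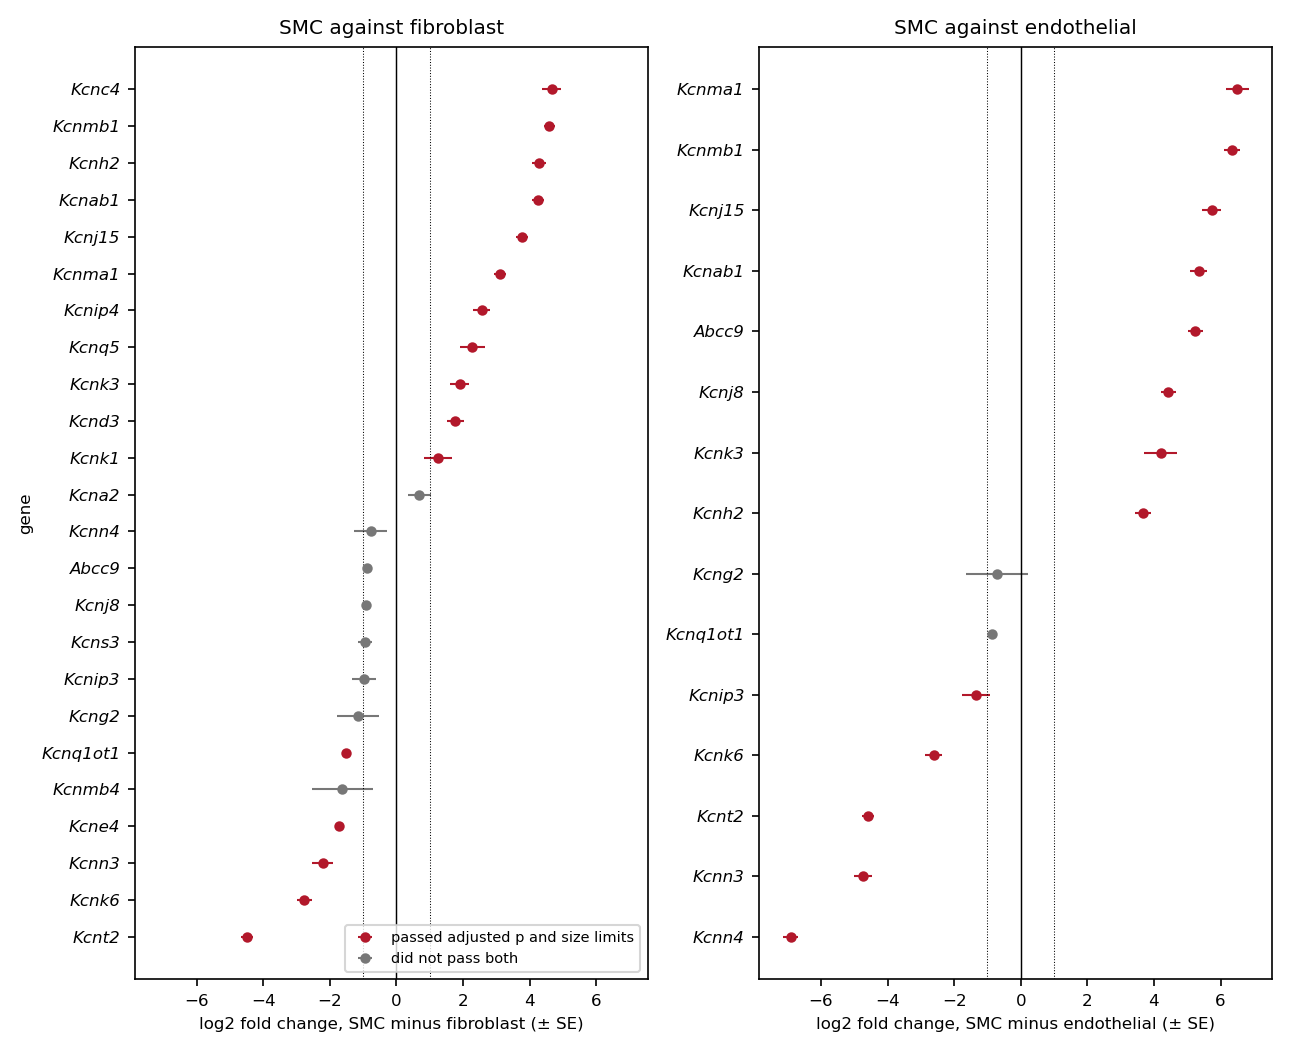
Log2 difference between SMCs and fibroblasts (left, 24 genes) and between SMCs and endothelial cells (right, 15 genes) for the reported tested members with more than 3 UMIs in both types and an SE under 1. Points are edgeR estimates from sums of 2 aortas, bars are ± SE, dotted lines mark a log2 of 1 and red points passed the adjusted p and size limits. Kcnmb1, Kcnma1, Kcnj15, Kcnab1 and Kcnh2 lie far to the right in both panels, while Kcnj8 and Abcc9 lie to the right in the endothelial panel only.

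Potassium channels act on calcium entry and release, and 18 other genes of SMC excitation were listed as partners. Of these, 14 were tested. Between SMCs and fibroblasts 8 were higher in SMCs, read against the same 9.88%, and 2 in fibroblasts, near the 15.5% of all genes, with a median log2 of 1.12. The higher ones included Ryr2, a calcium release channel of the sarcoplasmic reticulum (48.0 and 46.0 against 4.11 and 4.32 CPM), Cacna1d (34.0 and 39.3 against 2.64 and 5.18), Cacnb2 (38.4 and 34.3 against 7.92 and 5.61) and Ano1, a calcium-activated chloride channel (65.3 and 69.2 against 15.1 and 12.4). Cacna2d1, Itpr1, Cacna1h and Prkg1 were the others. Cacna1c, the pore of the main L-type calcium channel, stood at 23.7 and 26.2 against 13.9 and 16.0, a log2 of 0.84 ± 0.19. Cacna1g and Trpv4 were higher in fibroblasts. With RLE scaling 5 partners were higher in SMCs and with DESeq2 3 were. Lrrc26 and Lrrc52, BK γ subunits, had no UMI in SMCs.

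SMCs were divided into subclusters with the members again left out of the clustering, and 9 subclusters with at least 10 cells in each aorta were tested. They are called here by a leading gene: Hand2 (1071 cells), Dlx6 (767), Hoxa7 (754), Cyb5r3 (738), Malat1 (136), Pln (120), Scin (119), Gdf15 (84) and Pf4 (27). The Cyb5r3 and Malat1 subclusters had median depths of 1742 and 1842 UMIs per cell against 5262 to 10249 in the other 7. The Pf4 subcluster was led by macrophage genes. All 15 members with enough UMIs passed the F test (edgeR, adjusted p under 0.05), as did 53.8% of all genes tested. Kcna5 entered mainly through Pln cells and had to differ, so nothing is read from this count.

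The KATP pair varied widely. Kcnj8 stood at 224 and 195 in the Dlx6 subcluster and 213 and 269 in the Scin subcluster, but at 21.9 and 32.0 in Hand2, 31.0 and 42.3 in Hoxa7, 7.65 and 14.7 in Pln and 9.39 and 5.89 in Gdf15 cells. The aortas did not overlap between the first pair and the rest. Against the mean of the other subclusters Kcnj8 was higher by a log2 of 2.85 ± 0.15 (SE) in Dlx6 and 3.05 ± 0.23 in Scin cells (edgeR adjusted p = 1.15e-15 and 1.84e-11). Abcc9 followed with a smaller range, at 229 and 209 in Dlx6, 344 and 289 in Scin, 82.7 and 109 in Hand2 and 19.1 and 41.5 in Pln cells. Kcnj8 UMIs per Abcc9 UMI were therefore 0.978 and 0.931 in Dlx6 cells against 0.265 and 0.294 in Hand2 cells. Kcnj8 and Abcc9 are also known from pericytes, and the summed pericyte list stood at 371 and 495 CPM in Dlx6 and Scin cells, within the 238 to 651 of all 9 subclusters. Pericyte markers were the second-ranked list of the cluster of 878 cells led by Msx2 and Dlx6. The fibroblast list stood at 1030 CPM in Dlx6 cells and at 354 to 639 in the other 8 subclusters. The part of either list in the KATP levels was not tested.

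Kcnma1 stood at 201 and 165 in Dlx6 and 171 and 127 in Scin cells, against 68.3 and 73.8 in Hand2 and 85.6 and 82.3 in Hoxa7 cells. Kcnmb1 stood at 178 and 169 in Dlx6, 164 and 229 in Scin, 201 and 199 in Hand2 and 193 and 184 in Hoxa7 cells. Kcnmb1 UMIs per Kcnma1 UMI were 0.886 and 1.02 in Dlx6 cells, 2.95 and 2.69 in Hand2 cells, 0.961 and 1.80 in Scin cells, where the aortas differ, and 1.89 and 1.92 over all SMCs. Kcnma1 was higher in Dlx6 cells than in the mean of the others by a log2 of 1.24 ± 0.12 (SE; edgeR adjusted p = 1.28e-09).

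The Dlx6 subcluster differed at more members than any other of the 9. It was higher for 8 of 15 and lower for 3, against 5.21% and 2.59% of all genes. Besides KATP and Kcnma1, the higher ones were Kcnj15 (141 and 151 against 62.1 and 57.4 in Hand2 and 23.4 and 28.6 in Hoxa7 cells), Kcnc4 (52.6 and 55.3), Kcnk3 (69.1 and 42.6), Kcnip4 (33.6 and 31.7) and Kcne4 (32.0 and 31.7). The lower ones included Kcnab1 (35.2 and 60.9 against 204 and 227 in Hand2 and 182 and 170 in Hoxa7 cells) and Kcnh2 (18.4 and 12.0 against 49.8 and 53.4 in Hand2 cells). The log2 difference of Kcnab1 was -1.95 ± 0.16 (SE; edgeR adjusted p = 2.30e-11). The SMC marker list was also lower here, at 24770 CPM against 47797 in Hand2 and 47250 in Hoxa7 cells, and its part in the lower genes was not tested.

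Pln cells were led also by Notch3 and Gja4. Their pericyte list stood at 622 CPM with 3 of its markers detected, pericyte was the second-ranked list of the cluster of 63 cells led by Pln and Notch3, and its part in the levels here was not tested. Kcna5, the Kv1.5 pore, stood at 40.1 and 44.0 there and at or below 1.06 in each aorta of the other subclusters with over 100 cells, and in Gdf15 cells at 9.39 and 0. Kcnj12 stood at 19.1 and 9.77 in Pln cells, 1.06 and 1.44 in Hand2 cells and 0 in Dlx6 cells. Kcnj15, Kcnc4 and Kcnip4 had no UMI in Pln cells. Against a floor of 3 counts they were at least 21.0-, 7.12- and 5.60-fold higher in the other subclusters pooled. Kcnk3 stood at 49.7 and 51.3 in Pln and 60.6 and 45.7 in Scin cells, beside the Dlx6 level above, and at 6.34 and 5.19 in Hand2 and 9.54 and 3.40 in Hoxa7 cells.

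Smaller subclusters added single genes. Scin cells shared Nrn1, Scin and Tfap2b among their leading genes with the fibroblast cluster of 156 cells that held the highest KATP levels. In Scin cells the SMC marker list stood at 22946 CPM, Kcnh2 at 4.49 and 15.2, and Kcnc2, a Kv3 pore, at 8.98 and 20.3 (4 UMIs in each aorta), and the part of the lower marker list in the Kcnh2 level was not tested. Outside SMCs, Kcnc2 stood at 2.99 and 1.325 in endothelial cells other than lymphatic ones. Kcnq1ot1 stood at 815 and 538 in Malat1 cells and at 24.1 and 3.35 in Cyb5r3 cells, the 2 low-depth subclusters, whose median mitochondrial shares were 3.04% and 6.98%. Leaving out these 2, an alternative chosen after seeing the data, left 14 members passing the F test. In Gdf15 cells, led by Cdkn1a and Mdm2, Kcnj8 had 3 and 2 UMIs. It was lower there than in the mean of the others by a log2 of -2.52 ± 0.57 (SE, edgeR adjusted p = 0.00501). Kcnj8 was also lower in Pln cells, by a log2 of -1.795 ± 0.47 (SE, edgeR adjusted p = 0.00859). Kcna6 stood at 8.98 and 5.08 in Scin cells, from at most 4 UMIs in each aorta, and at 5.71 and 8.10 in Dlx6 cells.

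**Figure D3:**
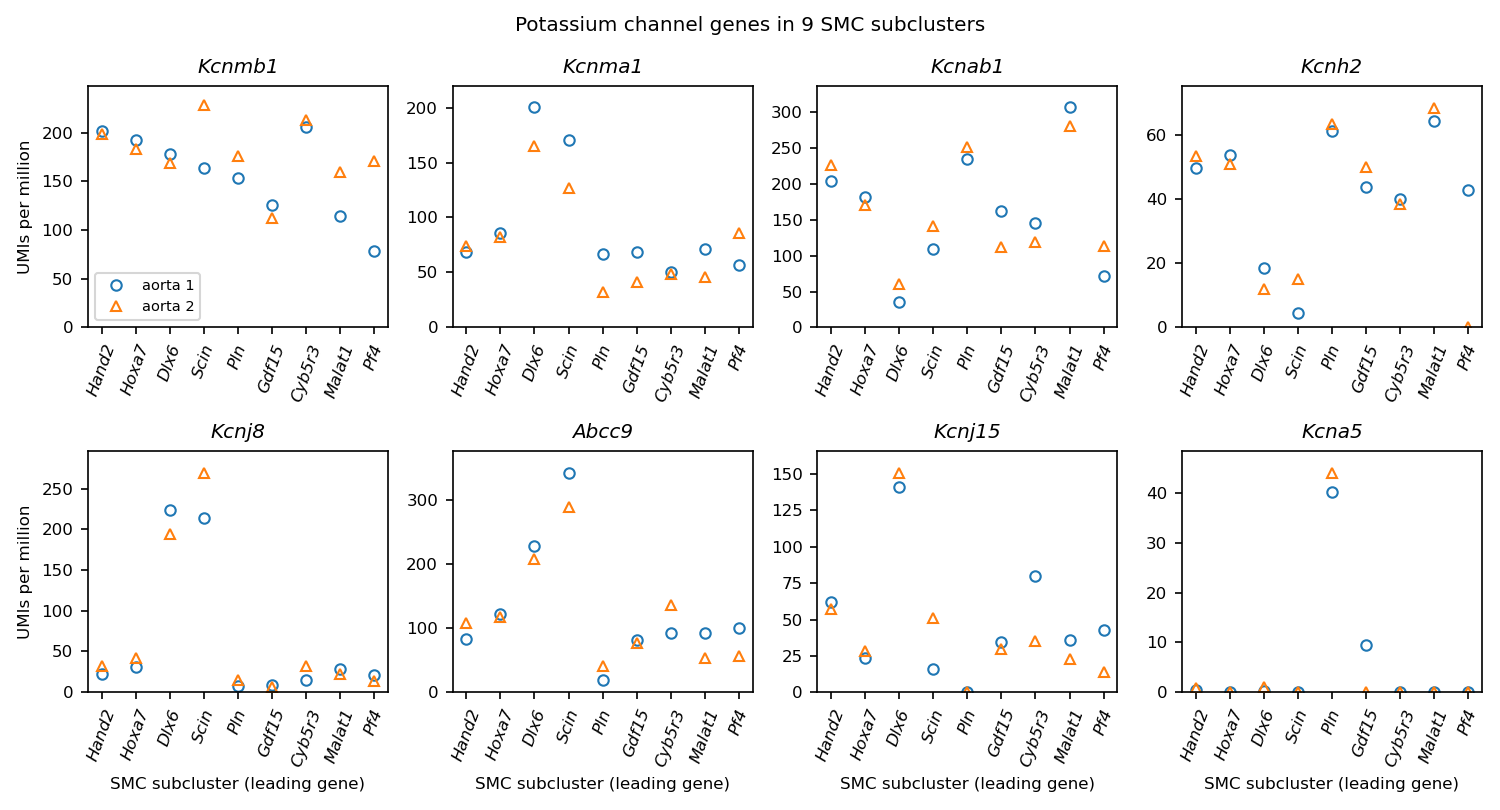
Levels in CPM of 8 potassium channel genes in 9 SMC subclusters named by a leading gene (horizontal axis), with circles for aorta 1 and triangles for aorta 2. Kcnj8 and Abcc9 are highest in Dlx6 and Scin cells, Kcnab1 is low in Dlx6 cells and Kcnh2 in both, and Kcna5 stands at 40.1 and 44.0 in Pln cells.

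Among immune subtypes 9 of 9 members tested passed the F test (edgeR, adjusted p under 0.05), as did 72.1% of all genes tested. Kcnk1 and Kcnk13 entered mainly through the subtype where they were high and had to differ, so nothing is read from this count. In macrophages (804 and 478 cells) the leak channel gene Kcnk13 stood at 31.6 and 37.7 and Kcnk6 at 35.1 and 32.9 CPM. In monocytes (51 and 31 cells) Kcnk13 had no UMI and Kcnk6 stood at 0 and 5.48, where 3 counts would be 9.69 and 16.4 CPM. Kcnj2 stood at 73.3 and 51.3 in neutrophils (46 and 37 cells) and at or below 9.69 in the other immune subtypes, from 7 and 4 UMIs in neutrophils.

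Kcnn4 was high in T cells (468 and 246 cells) at 106 and 80.5, in natural killer or innate lymphoid cells (24 and 17 cells) at 88.1 and 105, and in other myeloid cells (74 and 52 cells, led by Cd209a and Ccr2) at 87.0 and 117. It stood at 6.70 and 5.49 in macrophages and 17.3 and 40.01 in B cells (128 and 98 cells). Those other myeloid cells also held Kcnq1 at 19.9 and 22.5 and Kcne3, an accessory subunit of KCNQ1, at 27.3 and 20.5, against at most 1.72 in macrophages. Kcnmb4 stood at 23.1 and 23.3 in T cells. Kcnk1 stood at 80.1 and 93.6 in natural killer or innate lymphoid cells and at or below 1.33 in the other immune subtypes, so that these 41 cells carried most of the lymphocyte level. Kcnk5 was also highest there, at 40.04 and 35.1. Kcnab2, a Kv β2 subunit, stood at 25.2 and 25.04 in macrophages, 30.2 and 26.6 in T cells and 9.69 and 10.95 in monocytes. It had no UMI in neutrophils, where 3 counts would be 31.4 and 38.5 CPM. The T-cell values include a cluster of 225 cells led by Rag1 and Dntt and a cluster of 75 cells led by cell-cycle genes.

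Lymphatic endothelial cells (47 and 76 cells) were set beside the other endothelial cells (738 and 653) without a test. Kcnn3 stood at 60.04 and 55.2 in lymphatic and 32.5 and 33.6 in other endothelial cells. Kcnn4 stood at 0 and 3.94 against 81.3 and 87.5, and Kcnt2 at 0 and 7.88 against 64.7 and 87.9. In lymphatic cells 3 counts would be 18.0 and 11.8 CPM, so their Kcnn4 and Kcnt2 levels lie under that floor. Kcnn3 and Kcnn4 thus ran in opposite directions between these subtypes in both aortas. Kcnj8 stood at 24.0 and 31.5 in lymphatic cells (4 and 8 UMIs) and 1.66 and 2.21 in other endothelial cells. SMC markers were the second-ranked list of the lymphatic cluster, and their part in this level was not tested.

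**Figure D4:**
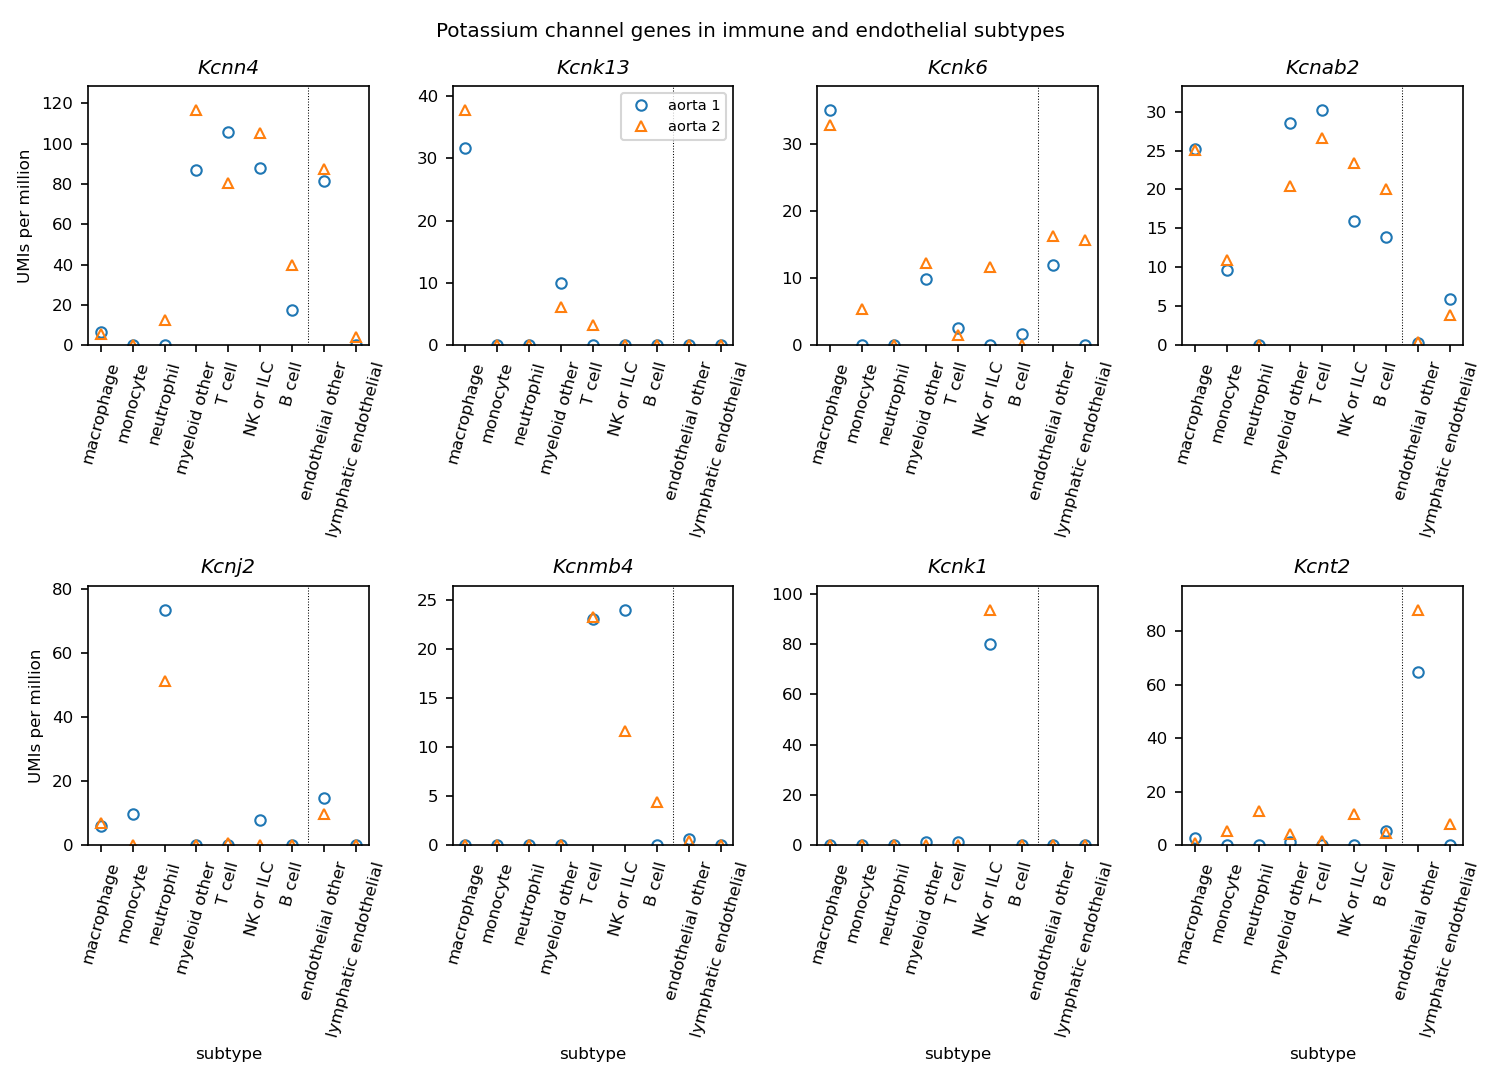
Levels in CPM of 8 potassium channel genes in 7 immune and 2 endothelial subtypes (horizontal axis, separated by a dotted line), with circles for aorta 1 and triangles for aorta 2. Kcnk13 and Kcnk6 are highest in macrophages, Kcnj2 in neutrophils, Kcnk1 in natural killer or innate lymphoid cells, and Kcnt2 in endothelial cells other than lymphatic ones.

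The remaining described genes had fewer UMIs. Kcng2 was highest in myeloid cells at 4.89 and 5.46, Kcnh3 was at 7.44 and 3.94 in lymphocytes and 5.96 and 5.89 in mesothelial cells, and Kcng4 was at 2.74 and 1.87 in fibroblasts. Kcnd3os, which lies antisense to Kcnd3, Kcnab3 and Kcnrg, a regulator of Kv assembly, each stayed at or below 1.59 in every type.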

How the data were processed

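Each aorta was 1 droplet library of the 3′ v3.1 chemistry. The deposited values are raw UMI counts per gene and cell, which the authors made with Cell Ranger 4.0.0, per the file headers, on mm10 with eGFP and tdTomato added; Seurat 4.0 is named in the submitters' processing notes. The deposited counts held 8947 and 6263 cells, with 47009780 and 30919996 UMIs. Cells with more than 200 genes, 1000 to 25000 UMIs and under 10% mitochondrial UMIs were kept, and Scrublet doublets (3.04% and 1.79%) were removed.

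Clustering used scanpy 1.11.5, 2000 variable genes, 30 principal components, a shared-neighbor graph of 20 neighbors and the Leiden algorithm at resolution 1 (0.8 within SMCs), without 134 genes that include the members, partner genes, mitochondrial genes and reporters. A cluster was named where at least 3 markers of a class were detected in at least 25% of its cells. The naming rule and the graph were changed after clusters had been seen, the graph because an earlier one was not numerically stable. The members and lists were chosen with earlier results of these data known.

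UMIs were summed per aorta and type and fitted with edgeR 4.0.16 in R 4.3.3 (quasi-likelihood, TMM, filterByExpr, Benjamini-Hochberg adjustment over all genes, type as the only term), and the fit was tested on simulated data. Fold changes are TMM-scaled and levels are not. Members with at least 20 UMIs were named, with levels in the types where they were high or low, and fewer values for those under 100 UMIs; 2 of them are counted in the totals but not reported here. The 2 aortas are separate animals, so sums of 1 number share an animal, and the deviations of types from the same aorta correlated with r of -0.00419 to 0.228 (median 0.0963) over 15 pairs of types. Alternatives were other scaling, DESeq2 1.42.0, gene and cell filters, doublets kept, other resolutions, SMCs with eGFP, leaving out a library, and the replicate block. Promoters and gene positions come from RefSeq and the GRCm38 annotation; no genome sequence was used here.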

Additional observations from a re-analysis of the deposited data

How the results depend on the processing

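No direction reversed under any alternative run. Counts under an alternative are given without the share of all genes called there, so nothing further is read from them. Members higher in fibroblasts were 7 and became 11 with RLE scaling and 13 with no gene filter, and 9 to 11 when 1 SMC library was left out, the highest without that of aorta 2. Members higher in endothelial cells fell from 10 to 6 with 5000 to 25000 UMIs per cell, where fewer cells remain. Partner genes differing between SMCs and fibroblasts fell from 10 to 5 with DESeq2, and those higher in SMCs from 8 to 3, or to 5 with RLE scaling. With no gene filter, 27 members differed among SMC subclusters in place of 15 and 19 among immune subtypes in place of 9, since more genes were tested. The summed SMC level moved from 920 to 932.0 at resolution 0.5 and 908.9 at resolution 2, and, by an alternative chosen after seeing the data, to 948.2 without the SMC cluster of 938 low-depth cells. Where an SMC library was left out, the lone sum was assumed to vary like the other types.

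With the replicate block, which pairs sums by aorta, 36 members differed among types, 20 between SMCs and fibroblasts, 27 between SMCs and endothelial cells, 15 among SMC subclusters and 9 among immune subtypes, as many as without it. Against the mean of the other subclusters, Kcnk3 in Cyb5r3 cells gained its call, at a log2 of -1.36 (edgeR adjusted p = 0.0359) with the replicate block and -1.34 (edgeR adjusted p = 0.0981) without it. Without the 3 fibroblast clusters carrying SMC markers, an alternative chosen after seeing the data, 15 members were higher in SMCs and 9 in fibroblasts. Of the single-gene values, 891 kept their side of the threshold, 21 lost it and 10 gained it, among them Kcnk1 and Kcnip3 (SMC against fibroblast, lost with DESeq2) and Kcnk5 (SMC against endothelial, adjusted p = 0.604 with 5000 to 25000 UMIs). Low counts limit the members under 100 UMIs, and 2 aortas limit every test; the cause of the other changes was not tested.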
